A study of Rattus norvegicus with 21 samples.

Results

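GABAergic hippocampal neurons that had been exposed to glia, or to medium conditioned by oligodendrocytes, were compared with GABAergic neurons exposed to neither. The comparison took 16 of the 21 single neurons of the series, chosen by their labels: 6 from cultures that kept their glia (called glia here), 5 from purified cultures given oligodendrocyte conditioned medium (OCM), and 5 from purified cultures without it (neither). The 11 exposed cells were pooled, and genes were sought that lay on the same side of the neither cells in both exposed groups. In all, 7 genes were higher in every exposed cell than in any neither cell, among them the vesicular zinc transporter Slc30a3 and the inhibitory synapse scaffold Gphn, and Mrps21 and Polr2e were lower in every exposed cell.

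GABAergic interneurons release GABA, which they make with the glutamic acid decarboxylases Gad1 and Gad2 and load into vesicles with the transporter Slc32a1. Many fire at high rates with the help of voltage-gated sodium channels clustered at the axon initial segment and of fast potassium channels. Glial cells release factors that are known to act on synapse formation, channel clustering and survival of neurons in culture, and oligodendrocytes release some of them before any myelin is made.

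All neurons came from Wistar rats carrying the VGAT-Venus transgene, a fluorescent reporter of the vesicular GABA transporter. They were taken at embryonic day 18 and kept for 17 days in vitro. The purified cultures, OCM and neither alike, had been treated with anti-mitotic agents (FdU, U, 5 µM), which the protocol gives for purified cultures and not for cultures with glia. OCM came from cortical oligodendrocyte cultures of newborn rats and was added from day 3 in vitro. For glia against neither, the presence of glia and the absence of the anti-mitotic agents therefore cannot be told apart, while OCM and neither cells share these agents. Each sample is the content of 1 neuron drawn into a patch electrode after recording. The labels name no animal or culture, so each group is 1 sample: no p-value or standard error is given, and SDs and ranges describe cells.

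Depth was lower in the neither cells. Whole reads recovered from the deposited values ran from 5587208 to 25160911 per glia cell, from 5730139 to 12967563 per OCM cell and from 2442814 to 7821375 per neither cell. After every cell was thinned to 2442814 reads, 3632 to 8262 genes were above 0 in glia cells, 3802 to 5765 in OCM cells and 2549 to 3878 in neither cells, so the neither cells still had fewer genes at equal depth, with a small overlap. Rows without a gene symbol took 20.0% to 30.1% of the values in neither cells, 11.7% to 22.4% in glia cells and 13.6% to 21.1% in OCM cells. Sample titles open with letters of unstated meaning: all 5 OCM cells and 4 of the 5 neither cells open with S, whereas the glia cells are 3 P, 2 ech and 1 S. The part of depth, detection and title letter in the differences was not tested. Fewer molecules in a cell and a smaller share of its content aspirated cannot be told apart.

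**Figure D1:**
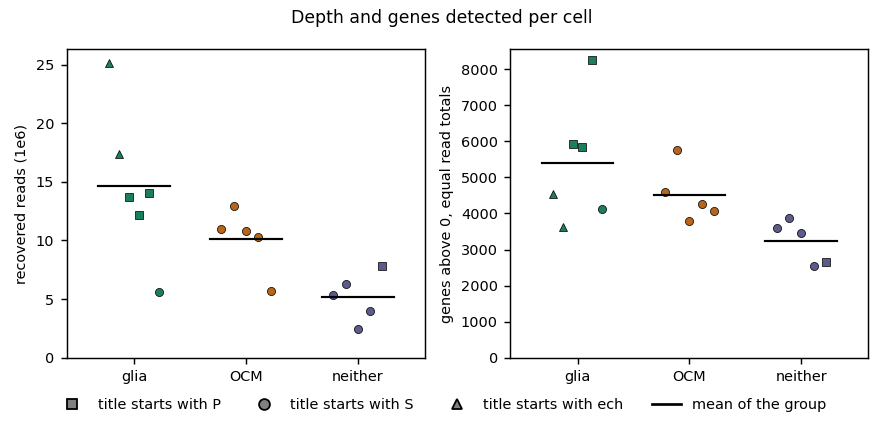
Recovered reads per cell (left, vertical axis in units of 1e6 reads) and genes above 0 after thinning to equal read totals (right) for the 6 glia, 5 OCM and 5 neither cells. Each marker is 1 cell, its shape gives the opening letters of the sample title, and the line is the group mean. Neither cells reach at most 7821375 reads and 3878 genes.

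Differences are given as group means of log2(normalized value + 1), exposed minus neither, so 1 is a doubling for genes well above 0 in all 16 cells. They understate changes of low genes, and a switch from 0 to a moderate level gives a large value. Even 1 cell at 0 can do so: Rplp0, above 0 in 15 cells, differed by 3.02, while its log2 ratio of group means was -0.0051. Of 5305 genes above 0 in at least 5 of the 16 cells and with a mean of at least 50, 2483 (46.8%) were higher by 1 or more in both exposed groups and 297 (5.6%) were lower by 1 or more in both. Genes higher in both thus made up 89.3% of the genes beyond 1 in both, 75.2% when group means were compared as ratios and 49.2% when each difference was centred on the median of all genes. That median was 1.83 for exposed minus neither, 2.23 for glia minus neither and 1.42 for OCM minus neither. Both differences share the 5 neither cells. Among the 1131 genes above 0 in 14 or more cells the medians were 0.63, 0.80 and 0.45, and 366 (32.4%) were higher and 48 (4.24%) lower in both. The filter can be passed through exposed cells alone: 577 genes were at 0 in all 5 neither cells, and 0 genes were at 0 in all 11 exposed cells.

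Complete separation of the cells was rare. All 11 exposed cells lay above all 5 neither cells for 7 genes (0.132%) and below them for 2 (0.0377%). Leaving out 1 cell gave between 7 and 22 higher genes and between 2 and 12 lower ones. The 9 genes were among them each time, since leaving out a cell adds separated genes and cannot make cells overlap. The higher count passed 1.5 times the full one without OCM 1 (16 genes), OCM 4 (11) and each of neither 1 to 5 (15, 22, 14, 18 and 22), and the lower count did so without glia 6 (5) and each of neither 1 to 5 (6, 4, 12, 8 and 7). With upper-quartile scaling the 7 higher genes were among 32 and both lower genes were lost.

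At the inhibitory synapse, Gphn encodes gephyrin, the scaffold that anchors GABA-A and glycine receptors (chromosome 6, 101327874 to 101859169 in rn6). Its normalized values in OCM cells 1 to 5 were 43.0, 698, 117, 18.4 and 2561, and in glia cells they ran from 53.3 through a median of 2903 to 4966. All 5 neither cells were at 0. The lowest exposed cell, at 18.4 (28 reads), was above the 8.22 that 3 reads would make in the shallowest neither cell. As a floor, 3 reads were taken over the whole neither group, all of them in its shallowest cell. The exposed mean was 1070-fold above that floor. The floor covers counting error only, not the fewer genes detected in neither cells. With no neither cell above 0, the gene passed the filter through exposed cells alone. Dlg3, a membrane-associated scaffold of excitatory synapses known as SAP102 (chromosome X, 70596577 to 70647298), was likewise at 0 in all neither cells. OCM cells 1 to 5 had 960, 186, 1542, 91.3 and 32.6, and glia cells 143 to 1718 with a median of 411. The exposed mean was 356-fold above the same floor, with the same limits, and the 2 exposed groups overlapped widely.

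Slc30a3 loads zinc into synaptic vesicles, best known from glutamatergic terminals (chromosome 6, 26629827 to 26650105). OCM cells 1 to 5 had 391, 855, 4958, 5254 and 7809, and glia cells ran from 1140 to 6563 with a median of 2581. Neither cells 1 to 4 were at 0 and neither 5 was at 83.0. The lowest exposed cell was 4.70 times the highest neither cell, and the exposed mean was 217 times the neither mean. Differences of mean log2 values were 10.15 for glia and 9.91 for OCM, against all-gene medians of 2.23 and 1.42.

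Tmed7, a cargo receptor of the early secretory pathway (chromosome 18, 40579182 to 40586260), was at 0 in the neither cells and above 0 in all exposed cells, but OCM 4 stood at 1.31, which is 2 reads. Thinning to equal depth put that cell at 0 and ended the separation. Bend6, a BEN domain protein (chromosome 9, 38297253 to 38351024), had 388, 24.4, 2441, 1226 and 699 in OCM cells, 39.4 to 3487 in glia cells and 21.5 in neither 5, the other 4 neither cells being at 0. Rangap1, the activator of the Ran GTPase in nuclear transport (chromosome 7, 122940374 to 122967178), was at 305, 3.56, 1497, 1259 and 1177 in OCM cells and 494 to 4468 in glia cells. OCM 2 (7 reads) lay just above neither 2, at 2.71 (2 reads). For Tmed7 and Rangap1 the separation thus rests on a few reads in 1 cell, whereas the other 10 exposed cells were at 305 or more.

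The lower genes are both parts of basic expression machinery. Mrps21, a protein of the small mitochondrial ribosomal subunit (chromosome 2, 197974759 to 197982385), was at 815, 1558, 1091, 1290 and 1088 in neither cells 1 to 5. OCM cells had 242, 418, 447, 144 and 0, and glia cells ran from 0 to 667 with a median of 283. The highest exposed cell was 1.22 times below the lowest neither cell. Polr2e, a subunit shared by the nuclear RNA polymerases (chromosome 7, 12532875 to 12536797), was at 1447, 698, 680, 972 and 1767 in neither cells against 0, 539, 563, 278 and 479 in OCM cells and 0 to 656 in glia cells. Only a factor of 1.04 separated the nearest cells of Polr2e, and scaling to the mean total ended its separation.

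**Figure D2:**
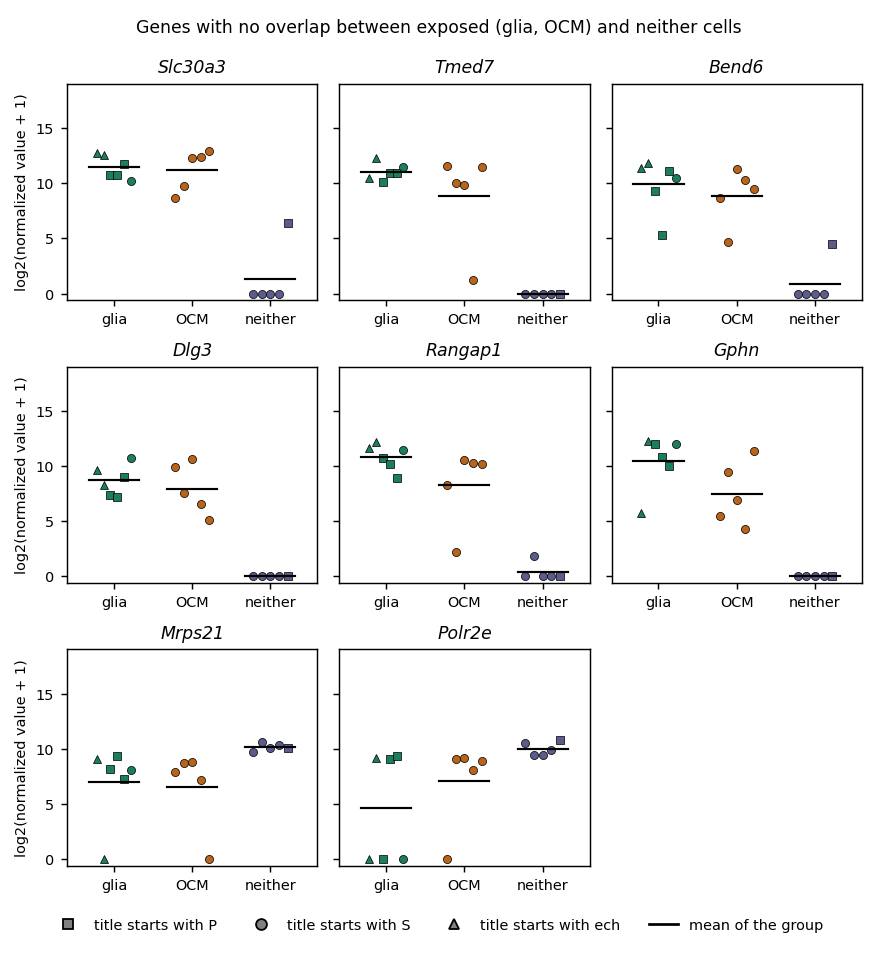
Each panel plots 1 of 8 genes without overlap, with log2(normalized value + 1) on the vertical axis and the glia, OCM and neither cells along the horizontal axis. Markers are cells, shapes give the title letters and lines are group means. The first 6 panels show neither cells at or near 0 apart from neither 5 in Slc30a3 and Bend6, and Mrps21 and Polr2e show neither cells at the top.

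Promoters are shown for genes that lay on 1 side in all cells, to set their start regions side by side. Of the 9 genes, 7 had an entry in the RefSeq promoter table of build GRCr8, a build other than the rn6 of the values. Shown are the 250 bases before the start on the coding strand for Slc30a3 (chr6:30997164-30997413, plus strand), Gphn (chr6:102687403-102687652, plus), Bend6 (chr9:43631195-43631444, minus), Rangap1 (chr7:115130565-115130814, minus) and the lower gene Polr2e (chr7:10317108-10317357, plus). Capitals mark the GC box GGGCGG on either strand (CCGCCC on the other), a short motif bound by Sp family factors.
Slc30a3: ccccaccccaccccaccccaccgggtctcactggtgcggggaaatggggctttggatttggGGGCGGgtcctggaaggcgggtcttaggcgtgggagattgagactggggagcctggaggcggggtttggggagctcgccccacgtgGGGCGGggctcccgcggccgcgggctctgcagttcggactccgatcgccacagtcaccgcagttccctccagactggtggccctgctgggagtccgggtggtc
Gphn: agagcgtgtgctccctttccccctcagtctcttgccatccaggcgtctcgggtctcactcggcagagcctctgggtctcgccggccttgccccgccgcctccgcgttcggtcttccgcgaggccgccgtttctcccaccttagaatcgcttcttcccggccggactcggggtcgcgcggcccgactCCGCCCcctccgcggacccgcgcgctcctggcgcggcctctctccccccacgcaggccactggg
Bend6: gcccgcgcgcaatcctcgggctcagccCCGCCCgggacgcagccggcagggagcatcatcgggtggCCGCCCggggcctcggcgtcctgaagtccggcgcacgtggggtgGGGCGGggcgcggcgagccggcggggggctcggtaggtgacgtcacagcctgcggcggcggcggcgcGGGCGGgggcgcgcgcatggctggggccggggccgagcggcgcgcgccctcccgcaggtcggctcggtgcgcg
Rangap1: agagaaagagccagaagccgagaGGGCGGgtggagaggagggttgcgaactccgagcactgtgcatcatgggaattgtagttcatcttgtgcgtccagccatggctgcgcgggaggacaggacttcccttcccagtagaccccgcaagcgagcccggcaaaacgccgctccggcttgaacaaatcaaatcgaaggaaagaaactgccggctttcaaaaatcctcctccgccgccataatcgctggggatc
Polr2e: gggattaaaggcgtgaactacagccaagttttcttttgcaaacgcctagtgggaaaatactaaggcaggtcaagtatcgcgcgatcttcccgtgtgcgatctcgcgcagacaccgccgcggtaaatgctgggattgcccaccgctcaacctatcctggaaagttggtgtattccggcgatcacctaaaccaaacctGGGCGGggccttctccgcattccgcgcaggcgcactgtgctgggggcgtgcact
The GC box was found 2 times in Slc30a3, 4 times in Bend6 and 1 time each in Gphn, Rangap1 and Polr2e. Of 33469 promoter windows of the same length in the table, 30.5% held it. The cyclic AMP response core TGACG, on either strand, was found in 1 stretch of Bend6, where matches on the 2 strands overlap, and in none of the other 4 windows shown, against 18.2% of all windows. GC content was 70.4% in Slc30a3, 72.4% in Gphn, 82.8% in Bend6, 57.6% in Rangap1 and 56.8% in Polr2e. Of the windows not shown, that of Tmed7 held the GC box 2 times, and the 2 windows of the other lower gene, Mrps21, held it 0 times. A match describes letters and is not a bound site.

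The cells' identity was checked on the given markers. Gad1 ran from 6011 to 19503 in glia cells with a median of 17419, and was at 2422, 11930, 15540, 8585 and 12320 in OCM cells. Neither cells 1 to 5 had 2930, 1636, 2574, 0 and 2725. Without OCM 1 all exposed cells lay above all neither cells. Neither 4, at 0 for Gad1, had Gad2 at 14087 and Slc32a1 at 390, so 2 other GABAergic genes were present in that cell. Slc32a1 itself was at 705, 462, 1357, 390 and 652 in neither cells, 1837, 975, 335, 251 and 112 in OCM cells and 171 to 882 in glia cells, and its groups overlapped.

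Snap25, a SNARE of vesicle fusion made by all neurons, was at 6340, 7111, 11775, 14639 and 9119 in neither cells and at 15874, 15437, 14532, 21276 and 24993 in OCM cells. Glia cells had 26926 to 44072. Of the exposed cells, OCM 3 alone fell below the highest neither cell, and the other 10 lay above it. Scn1a, the pore-forming sodium channel typical of interneurons, was at 0, 0, 0, 10.3 and 1.87 in neither cells and at 1157 to 2266 in glia cells. OCM cells split, with 1292, 312 and 2388 in cells 2, 4 and 5 against 0 and 4.28 in cells 1 and 3. Of 11 measured GABAergic identity genes, 6 were higher by 1 or more in both exposed groups and 0 lower, with a median of 1.69 beside 1.83 for all genes. Centred on all genes this median was -0.14. Counts for this list and the following ones are read beside the 46.8% higher and 5.6% lower among all genes. List members at 0 in all neither cells passed the filter through exposed cells alone and could not be lower. Among these are Scn8a, Kcnip1, Kcna1, Gadd45g, Slc30a4, Vldlr and Insig2, so their place among the higher members is a description only.

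Subtype transcripts differed between the groups of cells, and their part in the other differences was not tested. Reln, a secreted matrix protein, was at 4608, 10623, 10028, 6811 and 244 in neither cells, at 0, 327, 0, 612 and 1078 in OCM cells and at 0 to 2399 in glia cells. Without neither 5 no exposed cell reached the neither cells. Pnoc, the nociceptin precursor, lay the other way: 3772, 5715, 2696, 7316 and 7412 in OCM cells and 558 to 16083 in glia cells, against 0, 2.71, 288, 0 and 9482 in neither cells. Neither 5 was again the exception, and without it Pnoc did not overlap.

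The peptide genes Sst and Npy set neither 5 apart from the other neither cells. Sst was at 325053, 966, 19012, 124726 and 234564 in OCM cells and at 2.47, 130, 0, 0 and 243977 in neither cells, and its glia cells ran from 0 to 49864. Calb1, a calcium buffer, was above 0 in 4 OCM cells (2583, 1191, 1226 and 23555), in 2 glia cells and in 0 neither cells. Cck was at 19464 and 28143 in neither 1 and 2, at 0 in the other neither cells and all OCM cells, and at 187 or less in glia cells. Cnr1, the cannabinoid receptor of Cck cells, was high in the same neither cells, at 38420 and 14967, and ran from 0 to 26228 in glia cells. Penk, an enkephalin precursor chosen after its values were seen, was at 21284 and 25005 in neither 1 and 4, at 0 in all OCM cells and at 0 to 6450 in glia cells. Of 10 measured subtype genes 4 were higher and 5 lower in both exposed groups, with a median of -0.36.

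**Figure D3:**
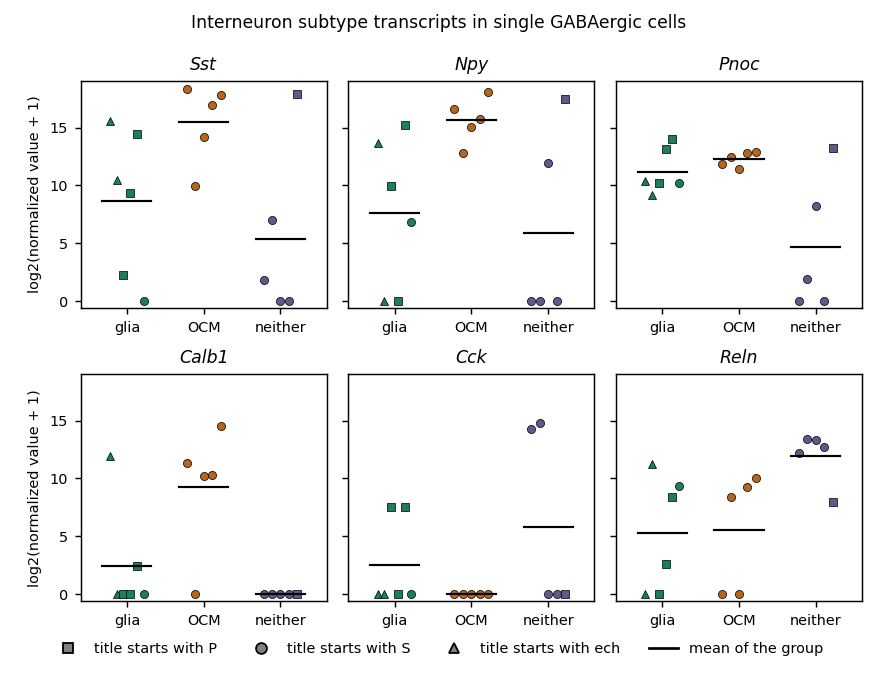
Interneuron subtype transcripts per cell, with log2(normalized value + 1) on the vertical axis and groups along the horizontal axis. Markers are cells, shapes the title letters, lines the group means. Neither 5, the square among the neither cells, is the high neither cell for Sst, Npy and Pnoc and the low one for Reln.

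Of 9 measured sodium channel genes, 7 were higher by 1 or more in both exposed groups and 0 lower. The list median was 1.87, near the 1.83 of all genes, and 0.037 when centred on them. Scn8a, the channel of the mature initial segment and node, was at 0 in all neither cells, at 882 and 613 in OCM 1 and 2 and at 0 in OCM 3 to 5, and above 0 in 5 of 6 glia cells (median 642). Scn2a was at 4006, 5.42, 2358, 2551 and 4554 in neither cells and 4198, 4486, 3338, 3919 and 2734 in OCM cells, so its levels overlapped apart from neither 2. Scn3a, an embryonic channel, differed by -0.34 and 0.43 in the exposed groups. The mean log2 level over the list was 2.58 to 5.21 in neither cells, 5.39 to 8.41 in OCM cells and 7.37 to 8.68 in glia cells, without overlap.

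Potassium and HCN channels had 12 of 24 members higher in both exposed groups and 1 lower (median 2.95). Kcnip1, an auxiliary subunit of A-type channels, was at 531, 428, 1290, 506 and 2362 in OCM cells and at 0 in all neither cells, and 5 of 6 glia cells were above 0. Kcna1, an axonal channel, was above 0 in 4 OCM and 4 glia cells and in 0 neither cells. Kcnd3 was the lower one, at 3115, 564, 1354, 0 and 353 in neither cells and 328, 0, 277, 5.25 and 0 in OCM cells. Calcium channels, pumps and buffers had 7 of 18 members higher and 1 lower, with a list median of 3.002 for glia and -0.02 for OCM. The difference between the exposed groups was not tested. The 5 measured sodium-potassium ATPase genes had 0 beyond 1 in both groups.

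GABA receptor genes with gephyrin had 10 of 14 members higher in both groups and 0 lower (median 5.00 for glia, 2.36 for OCM). Gabbr2, a subunit of the metabotropic GABA receptor, was above 0 in all exposed cells and in 1 neither cell, at 680. Gabra2 differed by 4.62 in glia and -0.94 in OCM cells, and Gabrb1 was at 0 in all OCM cells.

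Glutamate receptors had 10 of 13 members higher and 2 lower (Grik1 and Grm5). Gria4, the AMPA receptor subunit typical of fast interneurons, was at 2172, 1379, 3275, 4475 and 4972 in OCM cells, above 0 in 5 of 6 glia cells with a median of 3377, and at 2.47, 0, 1489, 0 and 0 in neither cells. The OCM cells lay above all neither cells but OCM 2, which was below neither 3. Gria1 was at 140 or less in neither cells and at 151 to 2837 in glia cells. The OCM cells differed by 4.19 in Gria1 but did not all lie above the neither cells.

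Among 31 presynaptic release genes 13 were higher and 1 lower. The list median was 1.55, below the 1.83 of all genes, and -0.28 when centred on them. Syt4, a synaptotagmin of dense-core vesicles, was at 629, 2.03, 100, 2889 and 1962 in OCM cells, 398 to 4768 in glia cells and 2.47, 0, 0, 0 and 0 in neither cells, so only OCM 2 fell within the neither range. Synaptic adhesion and scaffold genes had 13 of 26 higher and 1 lower (L1cam), with medians of 4.28 for glia and 1.54 for OCM. Cdh13, a cadherin of interneurons, was at 6261, 2421, 2729, 2125 and 3165 in OCM cells and at 0 in neither 1 to 4, with neither 5 at 2897. In the 5 adhesion members above 0 in 14 or more cells the median was -0.04.

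The cytoskeleton list held genes on both sides. Of 23 members, 5 were higher in both exposed groups (Nefh, Map1a, Nefl, Ina and Nefm) and 4 lower (Stmn1, Gap43, Tmsb10 and Marcks), and the median was -0.52. Of these, Nefm, Tmsb10 and Marcks were named after their values were seen. The higher genes encode neurofilament subunits and a microtubule-associated protein. Of the lower genes, Gap43 and Marcks encode membrane-associated proteins, Stmn1 a protein that acts on microtubules and Tmsb10 one that binds actin. Members known from axon growth were not all lower: Dpysl3 differed by -3.40 in glia and 1.10 in OCM cells, and Dcx by -1.56 and 0.52.

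Nefh, the heavy neurofilament subunit, was at 8705, 2641, 1438, 7118 and 3887 in OCM cells, 276 to 10714 in glia cells and 0, 0, 0, 0 and 1386 in neither cells. Nefl, the light subunit, was above 0 in all 16 cells, at 4774, 6030, 4351, 7195 and 272 in neither cells and 19233, 12611, 11224, 14993 and 26077 in OCM cells. The OCM cells all exceeded the neither cells, and the glia cells (6459 to 38514) did so except for overlap with neither 4. Map1a ranged from 1014 to 5972 in glia cells and 1883 to 7573 in OCM cells, against 213, 2.71, 35.6, 1634 and 1112 in neither cells. Nefm was at 11949 in neither 5, but its overlap was not in that cell alone. The glia cell titled S differed from the neither cells titled S by -0.13 for Nefm. Ina overlapped throughout.

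Stmn1, which destabilizes microtubules, was at 14204, 12803, 7199, 33910 and 7201 in neither cells and 4788, 4619, 5561, 5074 and 1408 in OCM cells. Among glia cells (760 to 14440, median 2317), only glia 6 overlapped the neither cells, and without it the groups did not overlap. Gap43 was at 10168, 10358, 4740, 5948 and 3802 in neither cells and 12978, 2070, 3139, 901 and 1638 in OCM cells, so OCM 1 was the highest of these. Tubb2b, a tubulin of young neurons in the transport list, was at 10717, 3620, 2892, 5409 and 4922 in neither cells and 3116, 1950, 4035, 1625 and 634 in OCM cells, with glia cells at 10.98 to 3531. All 4 lower cytoskeleton genes and Tubb2b stayed lower with any 1 cell left out, with differences of -2.91 to -1.55 for Gap43, -2.23 to -1.65 for Stmn1 and -2.74 to -1.90 for Tubb2b. Cells titled S alone, 5 of the 6 exposed ones being OCM, gave -1.27 for Gap43, -1.59 for Stmn1 and -1.23 for Tubb2b. The 1 glia cell among them differed from the neither cells titled S by -0.19, -0.0075 and -0.49, so these values rest on OCM cells.

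**Figure D4:**
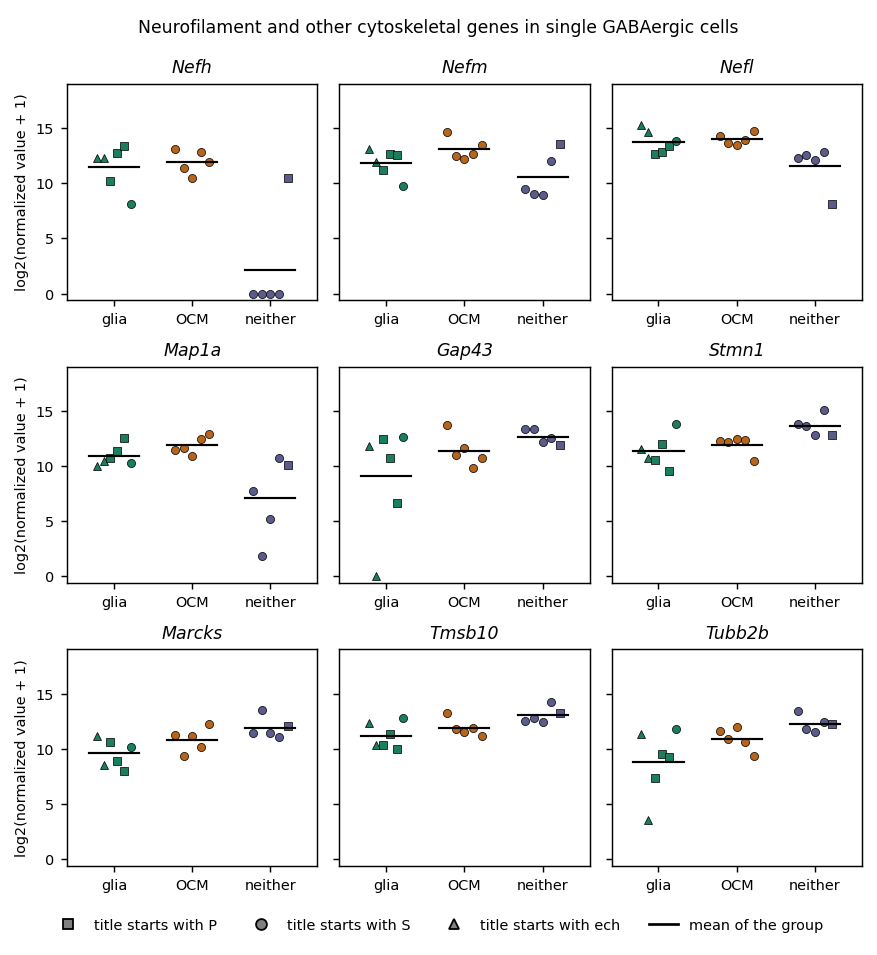
Neurofilament and Map1a transcripts (first 4 panels) and Gap43, Stmn1, Marcks, Tmsb10 and Tubb2b (last 5 panels) per cell, as log2(normalized value + 1) on the vertical axis, by group. Markers are cells, shapes the title letters and lines the group means. Neither cells are the lowest group on average in the first 4 panels and the highest in the last 5.

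Of 27 kinesin, dynein and tubulin genes 10 were higher and 2 lower (Kif5c and Tubb2b). Dync1h1, the dynein heavy chain, was at 225, 2290, 171, 2641 and 416 in OCM cells, 1201 to 4525 in glia cells and 2.47, 0, 85.0, 144 and 805 in neither cells. Genes of the axon initial segment and node had 9 of 15 higher and 0 lower (median 3.19). Tnr, a matrix protein of perineuronal nets, was at 486, 74.8, 3114, 32.2 and 2427 in OCM cells, above 0 in 3 of 6 glia cells, and at 6.78 or 0 in neither cells. Nrcam was at 1139 to 3866 in neither cells and differed by 1.38 and -0.53 in the exposed groups. Mean log2 levels over these 2 lists did not overlap between exposed and neither cells, nor did those of sodium channels and adhesion genes: 4 of 28 lists in all. The gaps were small, 8.68 to 8.82 for transport, 3.99 to 4.31 for the initial segment and 5.23 to 5.29 for adhesion.

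Activity-regulated genes had 8 of 10 members higher and 0 lower, with the highest list median for OCM (5.52) and 3.19 for glia. Gadd45g was at 369, 1011, 1354, 609 and 1342 in OCM cells, above 0 in 4 of 6 glia cells and at 0 in all neither cells. Fos was at 574, 768, 1132, 4413 and 9682 in OCM cells and at 19.8, 3007, 0, 0 and 131 in neither cells. Egr1 differed by -1.28 in glia and 5.68 in OCM cells, at 85.3 to 4240 in OCM cells but above 0 in 2 of 6 glia cells and 2 of 5 neither cells. Neuropeptide processing genes and granins had 6 of 9 higher and 0 lower. Scg2 and Vgf are members of both lists and count as higher in each. Scg2, secretogranin II, was at 20587, 26945, 15489, 10341 and 27307 in OCM cells, 6262 to 123730 in glia cells and 0, 5.42, 5535, 12133 and 5470 in neither cells, with neither 4 as the overlapping cell.

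Among zinc genes 7 of 11 were higher and 0 lower. Besides Slc30a3, Slc30a4 was at 62.3 to 346 in OCM cells, above 0 in 4 glia cells and at 0 in all neither cells, and Slc30a9 was at 680 to 3937 in OCM cells and above 0 in neither 2 and 4 alone (332 and 2520). Of 11 receptors for trophic and glial factors 7 were higher and 0 lower. Vldlr, a Reln receptor, was above 0 in 5 glia and 3 OCM cells and 0 neither cells, and Lrp1 in 5 glia cells, all OCM cells and 1 neither cell. Ntrk2, the BDNF receptor, was above 0 in all 5 neither cells and differed by -1.45 and -0.45.

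Most members of 4 housekeeping lists were well detected. Nuclear oxidative phosphorylation genes had 15 of 70 higher and 1 lower (Sdhc, median of the list 0.42), cytosolic ribosomal proteins 11 of 69 higher and 2 lower (median -0.21), proteasome genes 12 of 31 and 1 (0.52), and the vacuolar ATPase 5 of 16 and 0 (0.54). In the same order, their members above 0 in 14 or more cells (69, 57, 24 and 16) had medians of 0.42, -0.31, 0.15 and 0.54. These are read beside 0.63 for all genes so detected. Of these members 14, 8, 7 and 5 were higher and 1, 1, 1 and 0 lower in both groups, beside 32.4% and 4.24%. As log2 ratios of group means the median was 0.16 for oxidative phosphorylation and -0.34 for ribosomal proteins, against 0.31 for all genes. Ribosomal protein genes have near-identical pseudogene copies, so their values are uncertain. Rps2, one of them, differed by 3.40 and 2.98 on the log2 scale with 2 neither cells at 0, while its exposed mean was 1.02 times its neither mean. Glycolysis genes had 9 of 21 higher and 0 lower (median 1.90), with Pfkp, the platelet form of phosphofructokinase, at 2261 or more in OCM cells, 3971 or more in glia cells and 0 to 3153 in neither cells. Chaperones had 14 of 28 higher and 2 lower.

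Lipid synthesis genes also lay on both sides. Cholesterol synthesis had 6 of 22 higher and 2 lower (Msmo1 and Dhcr7), with a median of -0.28 for glia and 0.73 for OCM. Dhcr7, which makes cholesterol in the last step, was at 1878, 5139, 159, 3263 and 947 in neither cells, 29.1, 436, 3697, 0 and 1813 in OCM cells and 0 to 1632 in glia cells. Insig2, a brake on the pathway, was at 0 in all neither cells and above 0 in 5 glia and 4 OCM cells. Of 12 fatty acid genes 3 were higher, among them Elovl4, at 2802 in neither 1 and 0 in the other neither cells.

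**Figure D5:**
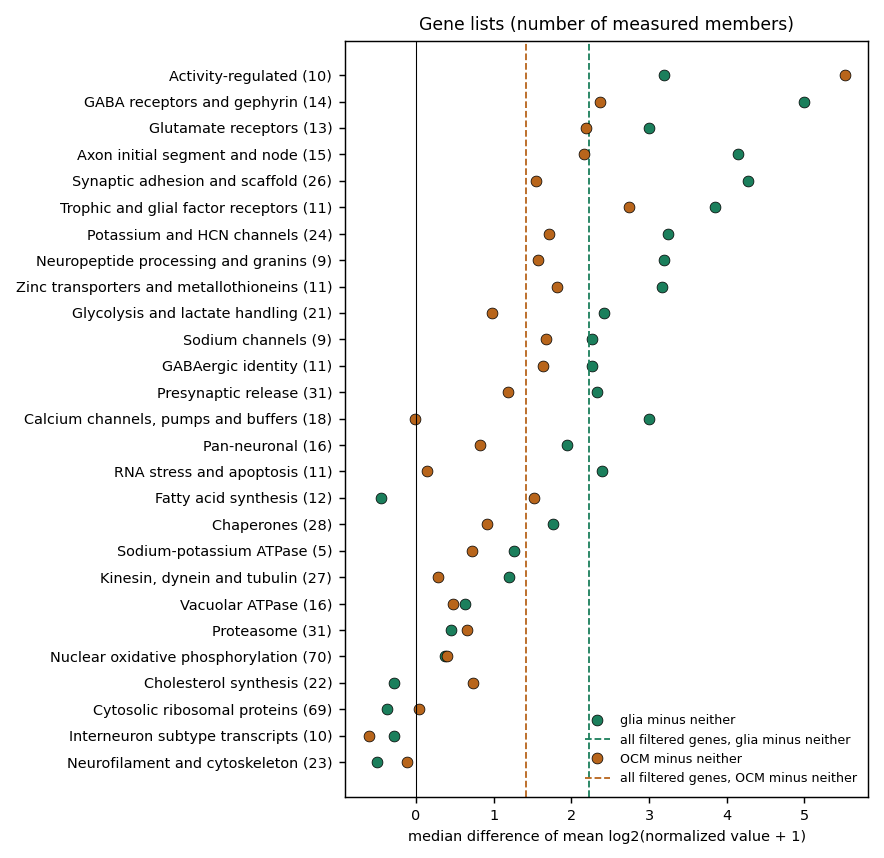
Median difference of mean log2(normalized value + 1) over the measured members of each list with at least 5 of them, for glia minus neither and OCM minus neither, with the number of members in brackets. Dashed lines are the medians of all 5305 genes, 2.23 and 1.42. Activity-regulated genes have the highest OCM value, 5.52, and the cytoskeleton and subtype lists lie below 0 for both.

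Well-detected genes (above 0 in 14 or more cells) with the largest common difference were Csdc2, Pnoc, Habp4, Nap1l2, Actr2, Scg2, Fam84a and Idh3B on the higher side, the last sharing its position with Nop56. The cut-off still lets neither cells be at 0, which widens these differences. Exposed minus neither, the 8 genes differed by 5.75 (Idh3B) to 8.06 (Csdc2). As log2 ratios of group means they differed by 1.39 (Pnoc) to 3.90 (Csdc2). Csdc2, an RNA-binding cold shock protein, was at 864, 3878, 12053, 4138 and 7979 in OCM cells, 3610 to 18313 in glia cells and 1478, 2.71, 0, 0 and 1102 in neither cells, so only OCM 1 overlapped. Actr2, a subunit of the actin-nucleating Arp2/3 complex, was at 1136 to 5684 in exposed cells and at 0, 2878, 10.97, 416 and 0 in neither cells. On the lower side were Mrps21, Dynlt1, Timm22, Zc3h7b, Rpl31, Aimp1, Tex264 and Polr2f. Timm22, of the mitochondrial import machinery, was at 3182, 2373, 1382, 3763 and 3826 in neither cells and 2230, 582, 1048, 1063 and 0 in OCM cells, with glia cells at 2.83 to 1810. Polr2f, another shared polymerase subunit, was at 3465, 1869, 499, 1653 and 1571 in neither cells and at 871 or less in OCM cells.

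Opposite directions were also seen: 295 genes (5.56%) were higher by 1 or more in glia and lower by 1 or more in OCM cells, and 99 (1.87%) the reverse. The largest of the first kind were Nfs1, Neu2, Nfx1, Ogfr and Acot13, and of the second Cd320, Unc119, Hyal3, Sgk1 (also in the pyramidal marker list) and Zc3h7a. Nfs1, which supplies sulfur for iron-sulfur clusters, was above 0 in 5 of 6 glia cells, in 0 OCM cells and in 2 neither cells, at 1334 and 1791. Cd320, a vitamin B12 uptake receptor, was at 523 to 2027 in OCM cells, above 0 in 1 glia cell and at 4211 and 1052 in neither 2 and 5.

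Markers of other cell types were mixed. Of the astrocyte markers, Slc1a2, Gjb6 and Fgfr3 were at 0 in all 16 cells and Gfap was above 0 in 1 glia cell only, and the summed level of 15 markers ranged from 1338 to 17266 in glia cells, 5148 to 14157 in OCM cells and 0 to 7698 in neither cells. Most of it was Clu, which neurons also make, at 5148, 4227, 7426, 4294 and 11325 in OCM cells and 2412, 0, 6536, 0 and 2622 in neither cells. Sparcl1 had a mean of 709 in glia cells (2 above 0), 1467 in OCM cells (3 above 0) and 0 in neither cells, and Apoe had 473, 48.4 and 19.9. Of the 4 astrocyte markers that passed the filter, 2 were higher by 1 or more in both exposed groups and 0 lower (median 2.91). Summed oligodendrocyte markers reached 1352 in glia cells, 10.2 in OCM cells and 857 in neither cells, with Mog, Mag and Sox10 at 0 in all cells. Summed microglia markers were at most 106 and vascular markers at most 578 in any cell. The summed level of 14 pyramidal markers reached 903 in glia cells, 2070 in OCM cells and 2528 in neither cells. Slc17a7, the glutamatergic vesicular transporter among them, was at 0 in all 16 cells. Sgk1 had a mean of 563 in OCM cells (4 above 0), 505 in neither cells (1 above 0) and 0 in glia cells, and Nrgn was above 0 in 3 glia cells alone, with a mean of 152. The part of glial or pyramidal material in the differences was not tested.

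The 5 pyramidal neurons grown with glia were not used in choosing genes. Of the higher genes described, Tmed7 and Gphn lay above every neither cell in 3 of 5 pyramidal cells, and Slc30a3, Bend6, Dlg3 and Rangap1 in 1 of 5. These counts are a description: the genes were chosen with neither cells at or near 0, where a few reads place a pyramidal cell above them. The pyramidal cells differ from the neither cells in type as well as in exposure, which cannot be told apart here.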

How the data were processed

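Single-neuron libraries were made with SMART-Seq v4 and Nextera XT and sequenced on a NextSeq500, per the labels' protocols. Per the submitters' processing notes, the tools were STAR 2.4.0, FastQC, Picard, SAMtools and DESeq2, with build rn6. No source used here states the read counter or the strand setting. Each deposited value is a normalized signal, 0 or more, that the authors name as DESeq2-normalized. They were whole multiples of 1 step per cell (100% within 0.05 of a whole number), which gave whole reads. A count test on these was not run, since it would take cells for replicates.

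Of 34976 rows, 18376 without a symbol were left out, as were 11 whose symbol is a number and 355 second rows of a symbol, the row with the highest mean being kept. Of the 5305 filtered symbols, 4995 are current in RefSeq and 245 are synonyms. Any 2 of the 16 cells correlated at 0.432 to 0.683 over symbols, so no pair was the same library. Replicates were numbered in accession order.

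Named genes were the identity genes, all genes without overlap, the 8 per direction with the largest common difference (the smaller in size of glia and OCM minus neither) above 0 in 14 or more cells, the 5 most opposite per arrangement, and up to 4 high and 2 low members per list. Some genes that the rules name, 1 of them without overlap, are not reported here. The comparison, lists and rules were chosen with earlier results of these data known. Alternatives were other pseudocounts, scalings, filters and summaries, thinning, title letter S, and leaving out each cell. Floors and ranges cover counting error only. Python 3.11.15, numpy 2.4.6, pandas 2.3.3 and matplotlib 3.10.9 were used.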

Additional observations from a re-analysis of the deposited data

Results flagged for a closer look

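In 19 of 140 groups of cells looked at, 1 cell stood apart from the rest of its group by Dixon's criterion. Chance alone meets this criterion in about 1 in 20 groups only where values are normally spread. Where all other cells of a group are without reads, any cell with reads meets it, as neither 5 does for Slc30a3 and Bend6. The 19 groups therefore cannot be read against 1 in 20, and no excess is concluded from them. The groups share cells, so they are not independent. Values are log2(normalized value + 1).

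Among single genes, neither 5 was apart for Slc30a3 (6.39), Bend6 (4.49) and Reln (7.94), being high for Slc30a3 and Bend6 and low for Reln. Neither 4 was low for Gad1 (0) and neither 2 high for Rangap1 (1.89). On the exposed side OCM 4 was low for Tmed7 (1.21), OCM 2 for Rangap1 (2.19), glia 1 for Gphn (5.76), OCM 1 for Polr2e (0), and glia 2 and OCM 5 for Mrps21 (0 in each).

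Among mean levels over gene lists, neither 4 was low for transport (kinesin, dynein and tubulin) genes (7.54) and for oxidative phosphorylation (9.62), and neither 5 for pan-neuronal genes (8.04). OCM 5 was high for activity-regulated genes (11.6) and low for chaperones (8.93). OCM 2 was low for interneuron subtype transcripts (6.09), OCM 4 for calcium channels, pumps and buffers (5.79) and glia 4 for the vacuolar ATPase (11.98).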

How the results depend on the processing

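The full counts were 2483 genes higher and 297 lower by 1 or more in both exposed groups, 7 and 2 without overlap, and an all-gene median of 1.83. Centring on the median of all genes gave 1207 higher, 1245 lower and a median of 0. A minimum mean of 500 gave 1170 and 138, ratios of group means 1402 and 462 with a median of 0.31, and a threshold of 2 gave 136 lower. Cells titled S alone (5 OCM, 1 glia and 4 neither cells, 3251 genes) gave 1118 higher, 44 and 22 genes without overlap and a median of 1.00. With fewer cells separation is easier, so 44 and 22 are not comparable with 7 and 2. Upper-quartile scaling gave 32 and 0 without overlap. The median was 1.15 and 2.56 with pseudocounts of 10 and 0.1, and 0.52 with medians over cells. Genes above 0 in 14 or more cells, chosen after seeing the data, gave 366 higher, 48 lower, 0 and 1 without overlap and a median of 0.63. Leaving out 1 cell gave 7 to 22 higher and 2 to 12 lower genes without overlap. Dlg3 left the separated genes at a minimum mean of 500 and Tmed7 on thinning.

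Signs turned on centring for the GABAergic identity list and Gad2 (-0.14 each), presynaptic release (-0.28), Fgf12 (-0.23), Ina (-0.23) and Nefm (-0.011). Ina was at -0.13 and Rplp0 at -0.55 with medians over cells, and Rplp0 at -0.0051 as a ratio of means. In genes above 0 in 14 or more cells the adhesion list was at -0.044 (5 genes) and the trophic receptor list at -0.996 (1 gene). There, cholesterol synthesis went from 0.29 to -0.82 (7 genes) and fatty acid synthesis from 1.26 to -0.35 (3 genes). A list of RNA stress and apoptosis genes went from 1.38 to -0.82 (1 gene), and the subtype list from -0.36 to 7.02 (1 gene). The cause was not tested. No paired analysis was possible because the replicate numbers were given in accession order and no test was run. Depth limits the low end: 3 reads in the shallowest neither cell make a value of 8.22, so lower values in exposed cells are not distinguishable from 0 there.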

Other observations

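Rows without a gene symbol were looked at apart. Of 18376 such rows, 428 passed the same filter, with a median difference of 1.34. In 1 of them all exposed cells lay above all neither cells and in 2 all lay below.

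With 1 cell left out at a time, 80 further genes had every exposed cell above every neither cell in some run and 31 had every exposed cell below. These are totals over runs of 4792 to 5253 genes each, against 7 (0.132%) and 2 (0.0377%) of 5305 genes with all cells. Leaving out a cell makes separation easier, so the added genes are a description only. Besides those described, neither 3 was the overlapping cell for the gamma tubulins Tubg1 and Tubg2 (higher, near-identical genes, so uncertain) and the import gene Timm22 (lower), neither 4 for Mllt11 (higher) and the G protein subunit Gnai2 (lower), neither 5 for the beta-synuclein gene Sncb (higher) and the chaperonin gene Cct3 (lower), and OCM 1 for the pyruvate dehydrogenase gene Pdha1 (higher). All these names were chosen after the values were seen.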
